A study of Mus musculus with 9 samples.

Results

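The Toll-like receptors of adipose tissue macrophages were followed as 10 of the 14905 genes in the deposited expression table: the receptor genes Tlr1, Tlr2, Tlr3, Tlr4, Tlr6, Tlr7, Tlr8, Tlr9 and Tlr13, and Myd88, the adaptor protein most of them share. They were taken by gene symbol, and all 10 were present in all 9 libraries. RNA was sequenced from macrophages of mouse visceral adipose tissue, sorted as cells carrying both F4/80 and CD11b, surface proteins that macrophages bear together. The KO group held 5 libraries of Nucb2-/- mice and the WT group 4 libraries of wild-type mice, all C57BL/6. Nucleobindin-2, the product of Nucb2, binds calcium and is the precursor of the peptide nesfatin-1; by its title the series concerns insulin sensitivity in obesity. Age, diet and the construction of the Nucb2-/- allele are not in the sample labels and were not used here; the name of the deposited table, which holds all 9 libraries, carries the mark HFD without spelling it out. The labels number the libraries within each group without saying that each is from its own mouse, and the spread behind each p-value is therefore that between libraries, some of which may be technical.

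Toll-like receptors recognise molecules of microbes and of damaged cells. Those at the cell surface bind mainly lipids, lipopeptides and lipopolysaccharide, and those in endosomes bind nucleic acids. On binding, the receptors dimerise and recruit adaptors such as Myd88, which pass the signal through kinases to NF-kB and interferon regulatory factors and so to the transcription of cytokine genes. In adipose tissue, macrophages are a main carrier of these receptors, and Tlr4 in particular has been studied as a link between dietary fat and inflammation.

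Of the surface receptors, Tlr1 and Tlr6 both pair with Tlr2, and their genes are neighbours on the minus strand of chromosome 5 in mm10. Tlr1 spans chr5:64924679-64933563 and Tlr6 spans chr5:64952031-64960097 (GENCODE M21). The pair is alike enough in sequence to bear on how reads are assigned. Of the 50-base words of the longest Tlr1 transcript, 15.3% also occur in Tlr6, and all 454 of them lie in the Tlr1 coding sequence. The longest identical run is 229 bases, coding in both genes, and its first 120 bases are printed here on the transcript strand because a read from them could have come from either gene.
Tlr1 and Tlr6, shared coding stretch: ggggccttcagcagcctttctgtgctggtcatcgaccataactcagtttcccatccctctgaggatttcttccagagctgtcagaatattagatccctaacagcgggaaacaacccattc
The other surface receptors, Tlr2 and Tlr4, and the endosomal receptors Tlr7, Tlr8, Tlr9 and Tlr13 share 0 such words with any other gene, so the stretches of that length in them are found in no other annotated transcript. The sources used here do not say how reads fitting more than 1 gene were counted.

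The promoters of 4 receptors are shown because the results turn on these receptors. They include Tlr1, whose KO and WT libraries did not overlap, and its neighbour Tlr6, which shares part of its coding sequence. The others are Tlr2, the receptor of the highest level and partner of both, and Tlr8, the endosomal receptor with the smallest p. Each runs from 250 bases before the RefSeq transcription start to 50 from the start on, 5′ to 3′ on the strand of the gene, in GRCm38.p6. Tlr1 is at chr5:64933509-64933808, Tlr6 at chr5:64959999-64960298, Tlr2 at chr3:83841559-83841858 and Tlr8 at chrX:167264280-167264579, all on the minus strand. Capitals mark matches to GAGGAA, the core of the sites bound by the macrophage factor PU.1, and to an NF-kB pattern (GGG, any 2 bases, TT, any base, CC), each searched on both strands.
Tlr1: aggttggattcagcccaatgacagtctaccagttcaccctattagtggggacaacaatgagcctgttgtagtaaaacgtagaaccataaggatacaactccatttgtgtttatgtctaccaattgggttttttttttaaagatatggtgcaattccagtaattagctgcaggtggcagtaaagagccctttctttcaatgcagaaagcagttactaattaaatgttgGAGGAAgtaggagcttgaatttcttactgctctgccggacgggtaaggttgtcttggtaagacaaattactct
Tlr6: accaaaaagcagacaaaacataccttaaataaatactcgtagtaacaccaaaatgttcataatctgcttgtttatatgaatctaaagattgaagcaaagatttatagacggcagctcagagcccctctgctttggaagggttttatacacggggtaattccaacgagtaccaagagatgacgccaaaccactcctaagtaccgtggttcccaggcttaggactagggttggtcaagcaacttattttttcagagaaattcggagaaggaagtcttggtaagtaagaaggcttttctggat
Tlr2: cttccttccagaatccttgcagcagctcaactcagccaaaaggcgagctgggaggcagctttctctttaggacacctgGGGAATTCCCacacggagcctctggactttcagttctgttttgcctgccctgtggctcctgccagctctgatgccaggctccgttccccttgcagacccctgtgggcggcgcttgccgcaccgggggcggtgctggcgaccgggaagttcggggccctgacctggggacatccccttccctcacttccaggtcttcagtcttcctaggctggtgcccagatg
Tlr8: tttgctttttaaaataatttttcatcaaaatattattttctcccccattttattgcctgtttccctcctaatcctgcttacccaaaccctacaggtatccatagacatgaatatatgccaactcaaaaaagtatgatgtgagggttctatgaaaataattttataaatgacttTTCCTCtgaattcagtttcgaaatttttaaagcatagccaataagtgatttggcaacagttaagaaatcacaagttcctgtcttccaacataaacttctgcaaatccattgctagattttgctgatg
The Tlr1 window holds 1 match to GAGGAA, with its first base at -23 from the start, and the Tlr8 window holds 1 on the opposite strand at -77. The Tlr2 window holds 1 match to the NF-kB pattern at -172, and the Tlr6 window holds neither motif. Tlr2 also stands apart in base composition, with 62% G and C against 40.3% in Tlr1, 40.3% in Tlr6 and 32.3% in Tlr8. Over all 32851 RefSeq promoter windows of this length, the median was 52.7%, GAGGAA occurred in 28.3% and the NF-kB pattern in 4.79%. Among the matched windows not shown, Tlr13 holds 1 match to GAGGAA, Tlr9 holds 2, and Tlr3 and Myd88 hold 0. The Tlr3 window holds 1 match to the NF-kB pattern, and those of Tlr9, Tlr13 and Myd88 hold 0. Patterns for an interferon-stimulated element, a TATA box and a C/EBP site were also searched and are not described here. A match is given as a description only. Promoter entries were matched for 8 of the 10 genes. The RefSeq start lay 5 bases from the GENCODE M21 gene start for Tlr1, 49 for Tlr6, 159 for Tlr2 and 0 for Tlr8. It lay 700 bases away for Tlr3 and 1393 for Myd88. Most of the Tlr2 window therefore lies inside the GENCODE gene, and positions of matches depend on the start used.

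The libraries fell into a deeper class of 6 (KO replicates 1 to 4, WT replicates 1 and 2), with 74937721 to 85200105 reads as recovered from the step between neighbouring values, and a shallower class of 3 (KO replicate 5, WT replicates 3 and 4), with 51148957 to 55004978. Since the classes hold unequal shares of the genotypes, each member is also given within each class. Nucb2 was lower in every KO library, at 1165 to 1752 normalized counts, than in any WT library, at 3311 to 5233 (log2 difference, KO minus WT, -1.52; SE 0.17; limma, adjusted p = 0.00054). Over all genes, 46 of 14905 (0.309%) had a limma adjusted p under 0.05. Markers of macrophages were abundant in both groups: all 8 were in the table, and their summed normalized counts were 1095670 to 1242210 in KO and 1143920 to 1291640 in WT. Transcripts of the Y-linked gene Ddx3y were present at 8834 to 12331 normalized counts in KO and 10687 to 12761 in WT, which matters here because Tlr7, Tlr8 and Tlr13 are X-linked. In bulk RNA such as this, fewer cells of a type and less RNA per cell cannot be told apart.

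The receptors were ranked by normalized count per kilobase of annotated exon, the scale on which genes of different length can be compared. Tlr2 was the highest member at 6187 ± 467 normalized counts per kb (SD, n = 9 libraries), and its range did not overlap that of any other member. Tlr8 followed at 2870 ± 486 per kb and the adaptor Myd88 at 2842 ± 285 per kb, and their ranges over the 9 libraries overlapped. Their order differed by group: Tlr8 exceeded Myd88 in all 4 WT libraries, with means of 3282 and 2671 per kb, and in 1 of 5 KO libraries, with means of 2540.0 and 2978 per kb. Next came Tlr13 at 2167 ± 335 per kb and Tlr7 at 1614 ± 254 per kb, both endosomal sensors of RNA. Tlr1, at 1229 ± 366 per kb, and Tlr4, at 1121 ± 232 per kb, overlapped each other. The order of these means, too, was reversed in KO, where the Tlr4 mean was 995 per kb and the Tlr1 mean 970.1, against 1278 and 1552 in WT. Tlr6 stood lower at 444 ± 73.1 per kb, with a range apart from its neighbours on both sides. Tlr3 at 118 ± 38.7 per kb and Tlr9 at 87.7 ± 25.3 per kb were the lowest, overlapped each other and lay near the median gene of the table, at 138 per kb. From the highest to the lowest member the mean per kb differed 70.5-fold. Against the longest coding sequence in place of all exons, 4 of 10 members kept their rank: Myd88, whose coding part is short, came first at 8243 per kb and Tlr2 second at 7929.

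**Figure D1:**
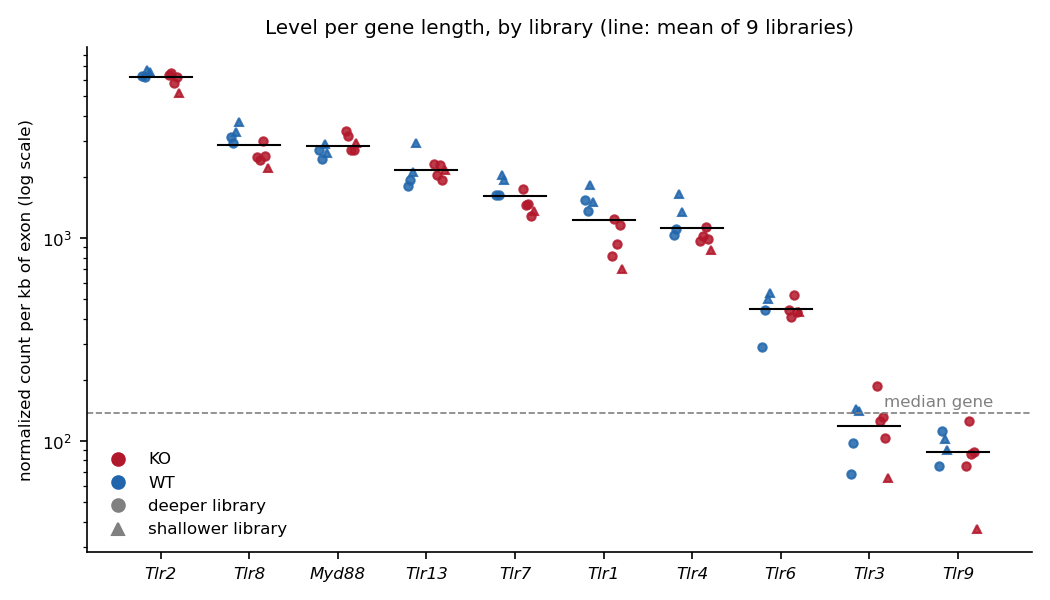
Normalized count per kilobase of annotated exon (log scale) for the 10 members in every library, with a line at the mean of the 9 libraries and a dashed line at the median gene (138 per kb). Tlr2 stands above all others, Tlr6 stands alone below Tlr4, and Tlr3 and Tlr9 lie near the median gene.

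With genotype as the comparison, 0 of the 10 members passed an adjusted p under 0.05 in limma, against 0.309% of all genes. At an unadjusted p under 0.05 there were 4 members, Tlr1, Tlr8, Tlr7 and Tlr4, all lower in KO, where 3.78% of all genes were lower, 5.37% were higher and 9.14% passed in either direction. With limma-voom on the worked-out reads, the counts were also 0 and 4. The 4 became 2 when WT replicate 3 was left out, 2 when WT replicate 4 was left out (Tlr1 and Tlr8 each time), and 1, Tlr1, in the deeper class alone. For 7 of 10 members the log2 difference was under 0, against 47.6% of all genes, and the median over the 10 members was -0.20 where that over all genes was 0.02. For 1 member, Tlr1, every KO library was below every WT library, against 1.6% of all genes, and 3.15% of genes did not overlap in either direction.

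**Figure D2:**
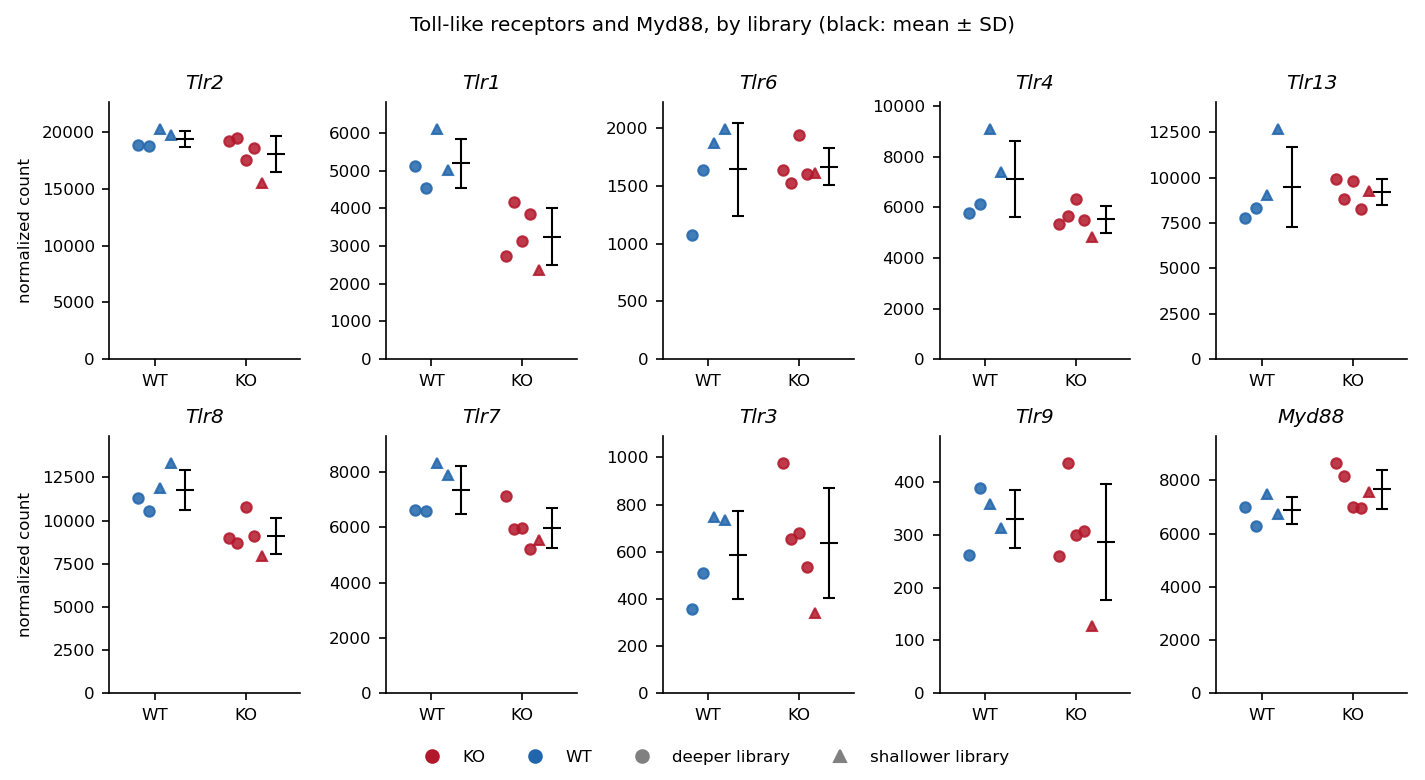
Normalized count of each member in each WT (blue) and KO (red) library, with circles for the 6 deeper and triangles for the 3 shallower libraries, and the mean ± SD of each group in black. Tlr1 is the member whose groups do not overlap; for Tlr8, KO replicate 3 alone reaches the WT range.

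Tlr1, which with Tlr2 recognises triacylated bacterial lipopeptides, had the largest log2 difference of the 10. Its normalized counts in KO replicates 1 to 5 were 2727, 4165, 3128, 3851 and 2359. In WT replicates 1 to 4 they were 5118, 4537, 6097 and 5016, so that the highest KO library lay under the lowest WT library. The means were 3246 ± 755 (SD, n = 5) in KO and 5192 ± 654 (SD, n = 4) in WT, a log2 difference of -0.70 (SE 0.16; 95% interval -1.05 to -0.35; limma, adjusted p = 0.0945). On the fitted scale the KO level was 61.5% of the WT level, with an interval of 48.3% to 78.3%. The difference did not pass the threshold over all genes. Within the depth classes it was -0.49 in the deeper libraries and -1.23 in the shallower ones. Their shared direction adds nothing, because groups that do not overlap must give it in any subset of libraries.

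Tlr6, which with Tlr2 recognises diacylated lipopeptides, overlapped between the groups. KO replicates 1 to 5 held 1637, 1523, 1939, 1601 and 1614 normalized counts, and WT replicates 1 to 4 held 1077, 1636, 1867 and 1989. All KO libraries lay inside the WT range, and WT replicate 1 was the lowest of the 9. The log2 difference was 0.05 (SE 0.19; 95% interval -0.36 to 0.46; limma, adjusted p = 0.952), and its sign was not stable: it was -0.14 without WT replicate 1, 0.33 within the deeper libraries and -0.26 within the shallower. Because of the shared sequence, Tlr1 and Tlr6 were also added together in normalized counts. The sum was 4364, 5688, 5067, 5452 and 3973 in KO replicates 1 to 5. In WT replicates 1 to 4 it was 6195, 6173, 7964 and 7004, and the groups again did not overlap. Most of that sum is Tlr1, and the part of shared reads in the Tlr1 difference was not tested.

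Tlr2 (chr3:83836272-83841767, minus strand), the common partner, was high in every library. KO replicates 1 to 5 held 19186, 19469, 17534, 18602 and 15493 normalized counts and WT replicates 1 to 4 held 18871, 18730, 20231 and 19724. The groups overlapped, and KO replicate 5 was the lowest of the 9 libraries. The log2 difference was -0.11 (SE 0.082; 95% interval -0.28 to 0.07; limma, adjusted p = 0.741), and it was -0.0091 within the deeper libraries and -0.37 within the shallower. Expressed per kb as a ratio to Tlr2, Tlr1 stood at 0.128 to 0.193 in the KO libraries and at 0.218 to 0.271 in the WT libraries, without overlap. The same ratio for Tlr6 had a mean of 0.0751 ± 0.0111 in KO and 0.0682 ± 0.0154 in WT, and these overlapped. The ratio of Tlr1 to Tlr6 per kb was 1.63 to 3.05 in KO and 2.81 to 5.29 in WT, and these overlapped too. The ratios of Tlr1 draw on the same Tlr1 counts as above.

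Tlr4 (chr4:66827584-66930284, plus strand), the receptor of lipopolysaccharide, varied more among the WT libraries, with a coefficient of variation of 21.1%, than among the KO libraries, with 9.6%. KO replicates 1 to 5 held 5349, 5656, 6309, 5490 and 4845 normalized counts, and WT replicates 1 to 4 held 5763, 6138, 9082 and 7411. The 2 high WT libraries were the shallower ones, and the deeper WT libraries lay inside the KO range. The log2 difference was -0.34 (SE 0.13; 95% interval -0.63 to -0.06; limma, adjusted p = 0.422). It was -0.06 within the deeper libraries and -0.76 within the shallower ones, where 1 KO library stands against 2 WT libraries. With depth class as a term in the model it was -0.30 (limma, adjusted p = 0.554).

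Among the endosomal receptors, Tlr8 (chrX:167242696-167264329, minus strand), a sensor of RNA breakdown products, had the smallest p. KO replicates 1 to 5 held 8990, 8710, 10804, 9100 and 7938 normalized counts, and WT replicates 1 to 4 held 11296, 10568, 11904 and 13316. KO replicate 3 alone exceeded the lowest WT library. The means were 9108 ± 1051 (SD, n = 5) and 11771 ± 1166 (SD, n = 4), a log2 difference of -0.37 (SE 0.10; 95% interval -0.59 to -0.15; limma, adjusted p = 0.179). The direction was the same within the deeper (-0.22) and the shallower (-0.67) libraries.

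Tlr7 (chrX:167304929-167330558, minus strand), which binds single-stranded RNA and lies beside Tlr8, had a smaller difference. KO replicates 1 to 5 held 7121, 5940, 5992, 5234 and 5560 normalized counts and WT replicates 1 to 4 held 6631, 6608, 8312 and 7880. KO replicate 1 alone stood above the lowest WT libraries, and the other KO libraries were all under them. The log2 difference was -0.30 (SE 0.11; 95% interval -0.55 to -0.06; limma, adjusted p = 0.398), with -0.13 within the deeper and -0.54 within the shallower libraries. Per kb, the ratio of Tlr8 to Tlr7 had a mean of 1.75 ± 0.257 in KO and 1.83 ± 0.142 in WT, and the ranges of that ratio overlapped.

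Tlr13 (chrX:106143204-106160493, plus strand), a mouse receptor for bacterial ribosomal RNA, had means of 9215 ± 704 (SD, n = 5) in KO and 9463 ± 2196 (SD, n = 4) in WT. Its KO libraries held 8254 to 9932 normalized counts and its WT libraries 7792 to 12664, where WT replicate 4 was the highest of the 9. The log2 difference was -0.02 (SE 0.13; 95% interval -0.29 to 0.25; limma, adjusted p = 0.979), with 0.19 within the deeper and -0.21 within the shallower libraries. An interval of this width does not show that the groups are equal.

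The receptors Tlr3 (chr8:45395665-45411080, minus strand), for RNA duplexes, and Tlr9 (chr9:106222598-106226883, plus strand), for unmethylated CpG DNA, were the least measured members. Tlr3 was 637 ± 231 normalized counts in KO (341 to 974) and 587 ± 188 in WT (357 to 748), a log2 difference of 0.10 (SE 0.35; 95% interval -0.64 to 0.84; limma, adjusted p = 0.949). Its sign was opposite in the depth classes, at 0.70 within the deeper and -1.12 within the shallower libraries. Tlr9 was 286 ± 110 in KO (127 to 434) and 329 ± 55.2 in WT (261 to 387), a log2 difference of -0.29 (SE 0.43; 95% interval -1.22 to 0.63; limma, adjusted p = 0.864), with 0.0075 within the deeper and -1.38 within the shallower libraries. Tlr9 rested on 100 to 513 reads in a library, and its interval runs from 43.1% to 155% of the WT level. KO replicate 5 was the lowest library for both.

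Myd88 (chr9:119335934-119341411, minus strand), the adaptor of all the receptors here except Tlr3, had the largest positive log2 difference of the 10. KO replicates 1 to 5 held 8641, 8167, 7014, 6964 and 7576 normalized counts, and WT replicates 1 to 4 held 7015, 6276, 7502 and 6725. In 3 KO libraries the value was above the highest WT library, and in the other 2 it was inside the WT range. The log2 difference was 0.16 (SE 0.10; 95% interval -0.06 to 0.37; limma, adjusted p = 0.688), and it was positive within both depth classes. Myd88 shares 290 bases of exon with Acaa1a on the opposite strand, 11.3% of its exons, and Acaa1a had a mean of 1502 ± 638 in KO and 1653 ± 707 in WT.

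**Figure D3:**
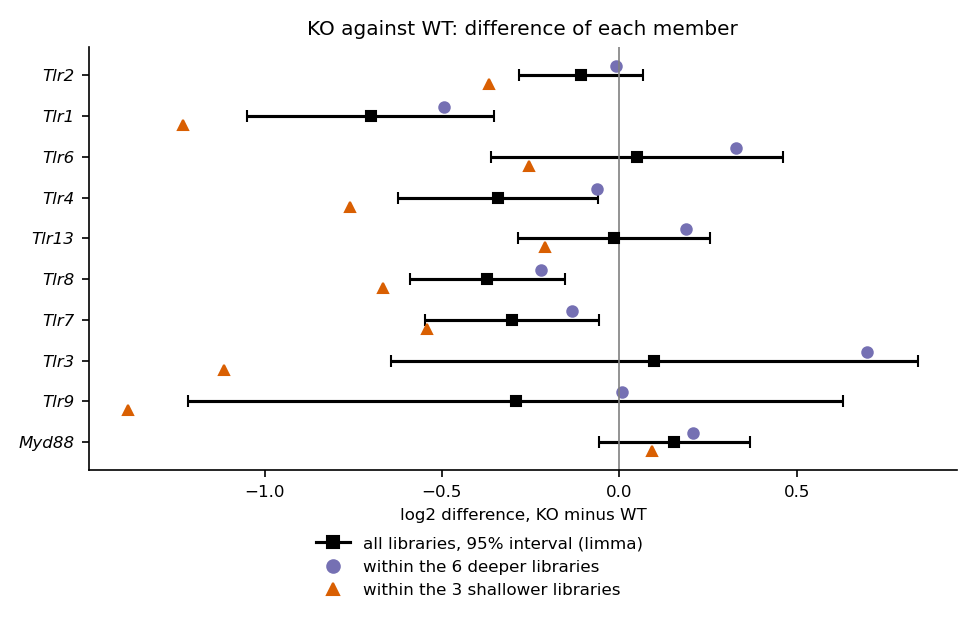
Log2 difference, KO minus WT, of each member with its 95% interval from limma over all 9 libraries, and the same within the 6 deeper and within the 3 shallower libraries (points without error). The shallower libraries gave the lower value for all 10 members.

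KO replicate 5 was the lowest KO library for Tlr1, Tlr2, Tlr3, Tlr4, Tlr8 and Tlr9, and 1 of the 2 shallower WT libraries was the highest of all 9 for Tlr1, Tlr2, Tlr4, Tlr6, Tlr7, Tlr8 and Tlr13. The receptors were therefore also described as shares of their summed level per kb in each library. The sum itself was 14750.2 ± 1035 in KO (12979.9 to 15404) and 17194 ± 1575 in WT (15826 to 18727), without overlap. The total of normalized counts over all genes did not overlap either. It was 6.51e+07 to 6.70e+07 in the KO libraries and 6.85e+07 to 7.09e+07 in the WT libraries. The part of these totals in the difference of the receptor sum was not tested. Within the receptor sum, Tlr2 held 40.6% ± 1.87 in KO and 37.6% ± 2.21 in WT, and Tlr1 held 6.55% ± 1.34 and 9.03% ± 0.901. Both shares overlapped between the groups. For the Tlr1 share, KO replicate 2, at 8.13%, was above WT replicate 4, the lowest WT library, so this share did not separate the groups. The surface receptors together held 56.9% ± 2.47 in KO and 56.5% ± 2.42 in WT, and these shares overlapped.

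**Figure D4:**
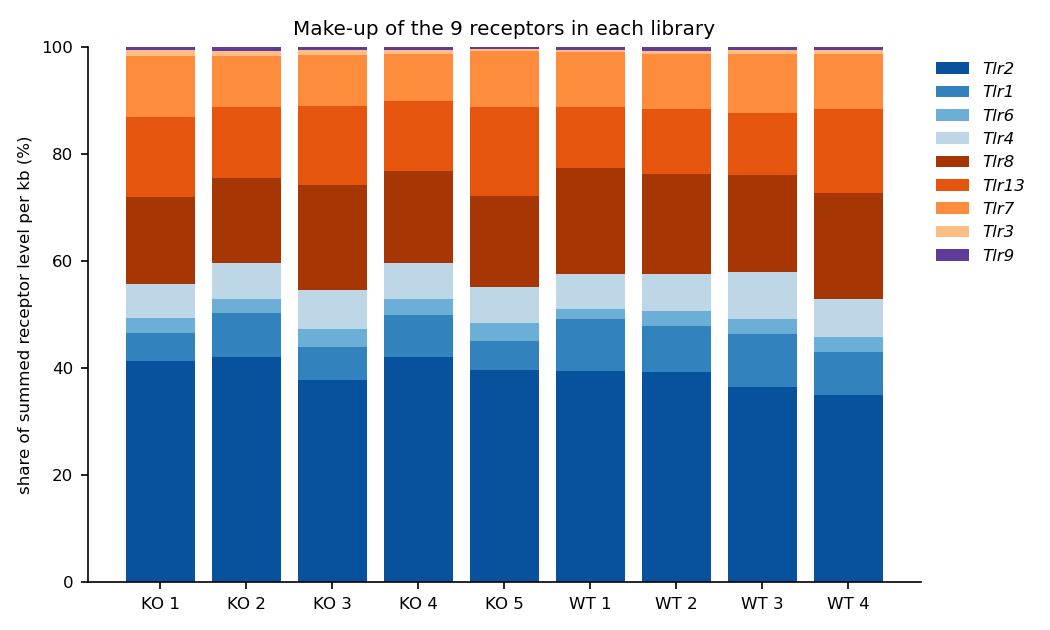
Share of each of the 9 receptors (%) in their summed normalized count per kb, in each KO and WT library. Blue shades are surface receptors and orange to purple shades endosomal receptors; the surface receptors make up 52.9% to 59.6% of every library.

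Other genes of the pathway were taken by role in 9 lists holding 75 genes. Of these, 1 passed the limma threshold as higher (0.181% of all genes did) and 0 as lower (0.127%). At an unadjusted p under 0.05, 5 were higher and 8 lower, where 5.37% and 3.78% of all genes were. Their median log2 difference was -0.03. Without overlap between the groups, 3 of the 75 were lower in KO and 3 higher, where 1.6% and 1.55% of all genes were. The gene that passed was Wdfy1, which recruits the adaptor Ticam1 to Tlr3 and Tlr4: its level was 3174 ± 397 normalized counts in KO and 751 ± 221 in WT (log2 difference 2.12; limma, adjusted p = 0.00036), with a log2 difference of 1.87 and an adjusted p of 0.108 in the 6 deeper libraries alone, where 0 of all genes passed in limma and 1039 had an unadjusted p under 0.05. Among co-receptors, Ly86, the partner of Cd180, was 41666 ± 3303 in KO and 54952 ± 5790.5 in WT without overlap (log2 difference -0.40; limma, adjusted p = 0.0626). Cd180, a receptor-like regulator of Tlr4 signalling, was 2018 ± 403 and 2786 ± 539 (limma, adjusted p = 0.422). Of the Tlr4 co-receptors, Cd14 had 227072 ± 27416 in KO, 206280 ± 32029 in WT and a limma adjusted p of 0.716. For Ly96, which binds lipopolysaccharide with Tlr4, the means were 2386 ± 348 and 2533 ± 372, with a limma adjusted p of 0.894.

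Receptors of endosomes need the chaperone Unc93b1 to leave the endoplasmic reticulum and proteases to become active. Unc93b1 was 31179 ± 3854 normalized counts in KO and 35489 ± 2844 in WT (log2 difference -0.19; limma, adjusted p = 0.555). Ctss, encoding the protease cathepsin S, was 218341 ± 16735 and 276897 ± 35229 without overlap (log2 difference -0.34; limma, adjusted p = 0.130), while Ctsk, encoding cathepsin K, had a log2 difference of 0.22 (adjusted p = 0.577). The transporter genes Slc15a3 and the sorting gene Ap3b1 had log2 differences of -0.49 (adjusted p = 0.264) and -0.35 (adjusted p = 0.461). Of the adaptors, Pik3ap1 was at -0.25 (adjusted p = 0.603), Tirap, the bridge from Tlr2 and Tlr4 to Myd88, at 0.04 (adjusted p = 0.970), and Ticam1, the adaptor of Tlr3, at -0.02 (adjusted p = 0.979). Sarm1 was at or near the floor of 1 in most libraries.

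Downstream, Ikbkb, an IkB kinase subunit, was 4609 ± 295 normalized counts in KO and 3513 ± 348 in WT without overlap (log2 difference 0.39; limma, adjusted p = 0.199), and Ube2n, a ubiquitin-conjugating enzyme, was at -0.15 (adjusted p = 0.591). Irf8, a transcription factor of myeloid cells, was 3456 ± 546 and 5564 ± 1887 (log2 difference -0.64; limma, adjusted p = 0.228), and Irf1 was at -0.30 (adjusted p = 0.550). Negative regulators gave -0.15 for Tnfaip3 (adjusted p = 0.532), which did not overlap between groups, and -0.19 for Inpp5d (adjusted p = 0.634). Il1r1, a receptor that also signals through Myd88, was 2351 ± 142 and 1907 ± 132 without overlap (log2 difference 0.30; limma, adjusted p = 0.519), and Il18rap was at -0.81 (adjusted p = 0.812). Of the remaining receptors, Tlr5, for flagellin, was 328 ± 102 in KO and 110.1 ± 106 in WT (log2 difference 2.31; limma, adjusted p = 0.301), Tlr12 was 35.5 ± 28.5 and 272 ± 336 (adjusted p = 0.419), and Tlr11 had adjusted p = 0.724. None of these differences passed the threshold except that of Wdfy1.

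**Figure D5:**
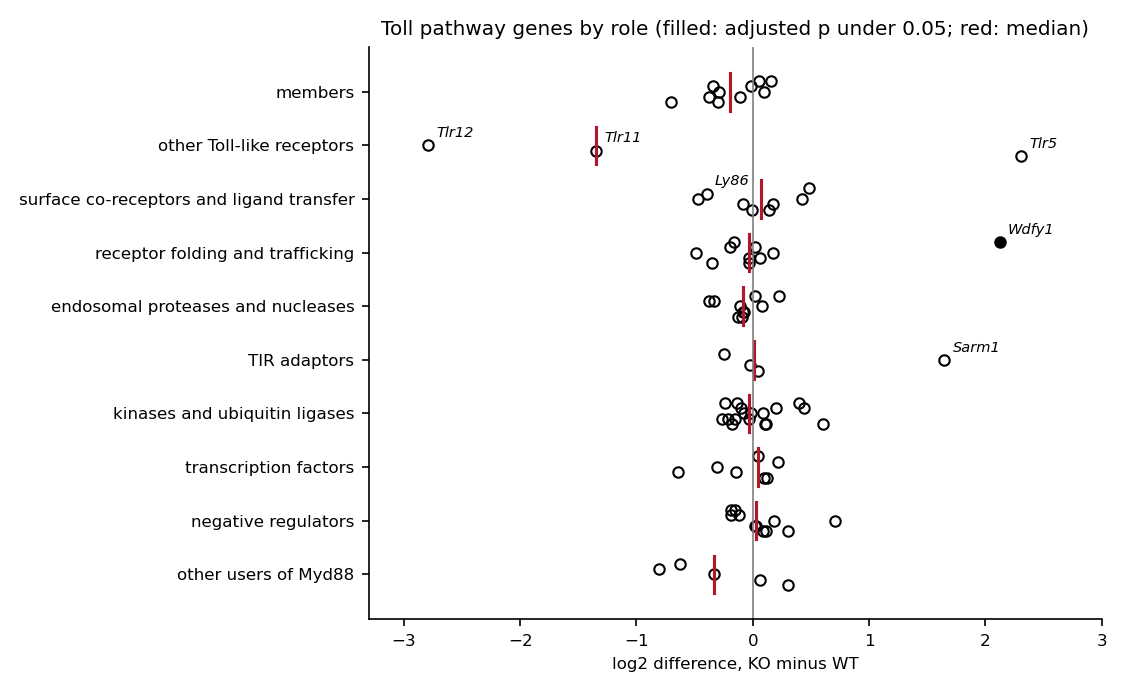
Log2 difference, KO minus WT, of the 10 members and of 75 pathway genes by role, with the median of each list in red. Wdfy1 is the only filled point, that is, the only one with a limma adjusted p under 0.05.

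Markers of some other cell types differed between the groups, while those of most lists held none past the threshold. Mast cell and basophil markers, all 8 of which were in the table, summed to 1849.5 to 3492 normalized counts in KO and 6081 to 10799 in WT. Of these, 4 passed the threshold as lower, where 0.127% of all genes did, and Fcer1a was at the floor of 1 in every KO library. The log2 difference was under 0 for 7 of the 8 and above 0 for 1, Ms4a2, at 0.61 (adjusted p = 0.921 in limma). Endothelial markers, all 8 in the table, summed to 4131 to 9319 in KO and 2038 to 3209 in WT. Of these, 2 passed as higher, where 0.181% of all genes did. Conventional dendritic cell markers summed to 10694 to 13428 in KO and 6718 to 10308 in WT; Cd209a passed as higher, whereas Clec9a was lower without overlap, at 1 to 72.9 in KO and 145 to 803 in WT, and did not pass. Itgae was at the floor in every KO library and in at least 1 WT library. Mesothelial markers (7 of 7 in the table) summed to 5412 to 17763 in KO and 1968 to 7242 in WT, monocyte markers (7 of 7) to 109495 to 156638 and 108339 to 120067, and neutrophil markers (6 of 8) to 2546 to 4336 and 1990.2 to 2983, with 0 passing in each list. Fibroblast markers (6 of 6) summed to 271473 to 422802 in KO and 191295 to 320712 in WT, and 0 passed. Adipocyte markers (5 of 5) summed to 183 to 508 in KO and 516 to 807 in WT without overlap, and 0 passed. The adipocyte markers did not share a direction: 2 had a log2 difference under 0 and 3 above 0, with a median of 0.07. Plasmacytoid dendritic cells and B cells carry much Tlr7 and Tlr9. Of their markers, 6 and 7 were in the table and 0 passed in limma, with sums of 11736 to 15434 in KO and 11614 to 13673 in WT for the former, and 2284 to 3024 and 1959 to 4049 for the latter. Tcf4 and Bst2 made up most of the former sum, and the highest value of its other markers was 370. The largest B cell marker was Cd79b, at 1335 to 2303 in KO and 1149 to 3311 in WT. These sums therefore do not measure how many such cells were present. Among the 8 macrophage markers 0 passed. Their log2 difference was under 0 for 5 and above 0 for 3, with a median of -0.015. Without overlap, 2 of the 8 were lower in KO, against 1.6% of all genes, and 0 were higher. These 2 were C1qa (19938 to 30965 in KO, 32475 to 39274 in WT) and Fcgr1 (8685 to 11268 and 11917 to 18179). The part of these cell types in the differences of the receptors was not tested.

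Members differed in how steady they were within a group, here as the SD of log2 values about the group means beside the median SD of genes whose mean lay within 1.5-fold. Tlr1 had an SD of 0.28 where 1634 such genes had a median of 0.21, and Tlr13 had 0.22 against 0.16. Tlr2, at 0.11 against 0.13, and Myd88, at 0.12 against 0.17, were steadier than the median gene of their level, and Tlr8 was at 0.15 against 0.15. The spread of Tlr3, at 0.53, and of Tlr9, at 0.52, was the widest of the 10. Within groups, the values of Tlr1 and Tlr2 went together over the 9 libraries (Pearson r = 0.73), as did those of Tlr3 and Tlr7 (r = 0.83) and of Tlr2 and Tlr9 (r = 0.81), while those of Tlr1 and Tlr6 did not (r = -0.0083). These 4 pairs were picked after their values were seen and are descriptions over libraries that share depth.

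For each member, the 2 genes whose log2 values followed it most closely over the 9 libraries were found after the mean of each group was taken out, among 7251 genes of at least median level. These Pearson correlations are descriptions as well. Tlr1 was followed by Clec4b1 (r = 0.95) and Aars (r = 0.95), Tlr2 by Snrpe (r = 0.97) and Nckap1l (r = 0.95), Tlr6 by Mbip (r = 0.96) and Zfp26 (r = 0.96), and Tlr4 by Fcgr4 (r = 0.97) and Txn1 (r = 0.96). Of the endosomal receptors, Tlr8 was followed by Parl (r = 0.96) and Gab2 (r = 0.95), Tlr7 by Frrs1 (r = 0.97), and Tlr13 by Cd24a (r = 0.95) and Pdhb (r = 0.93). Tlr3 was followed by Frmd8 and Psmd8 (both r = 0.97), Tlr9 by Ndufa4 (r = 0.96) and Prrc2a (r = 0.95), and Myd88 by Hspa8 (r = 0.97) and Ppp2r3c (r = 0.96). No gene was shared between the lists of different members.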

How the data were processed

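RNA of F4/80 and CD11b positive cells was sequenced from oligo-dT selected, strand-specific dUTP libraries, per the labels' protocols. CASAVA 1.8.2, HISAT, Partek, DESeq2 and mm10 are listed, with no role, per the submitters' processing notes; the annotation, the use of strand and the treatment of shared reads are not stated there. The deposited values are a normalized signal per gene and library with a floor of 1. Their spacing shows counts divided by 1 factor per library: 100% of the values between the floor and 60 were whole multiples of a step, within 0.1 of a step. No count model was used.

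The members, gene lists and tests were chosen with earlier results of these data known. The main test was limma 3.58.1 (R 4.3.3) with a mean-variance trend on log2 of the value plus a pseudocount of 1, with genotype alone in the model and p-values adjusted by Benjamini-Hochberg over 14905 genes, at 0.05; the scale understates changes of low genes. The text names the 10 members, Nucb2, each pathway gene past the threshold, up to 2 more per role list by smallest p, and the 2 genes most like each member; 1 gene that this rule takes is not reported here. Tlr11, Cd14, Ly96, Unc93b1, Tirap, Ticam1, Acaa1a, C1qa, Fcgr1, Fcer1a, Cd209a, Clec9a, Itgae and Ddx3y were named after their values were seen. So were Ms4a2, Tcf4, Bst2 and Cd79b. Lengths and positions come from GENCODE M21, matched by symbol for 14395 genes (96.6%), and promoters from RefSeq. The code was tested on simulated data. The 20 alternatives were pseudocounts of 0.1 and 10, a mean filter at 10, quantile and median-ratio scaling, robust moderation, array weights, limma-voom, a replicate block, a depth-class term, the deeper class alone, and each library left out. Figures were drawn with matplotlib 3.10.9.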

Additional observations from a re-analysis of the deposited data

Results flagged for a closer look

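Among 70 groups of 4 or 5 libraries looked at (35 genes), 4 held a library far from the others of its group; chance alone gives about 1 in 20. Tlr6 was 1939 normalized counts in KO replicate 3, where the other KO libraries held 1523 to 1637. Tlr12 was 772 in WT replicate 3, where the others held 44.8 to 146. Cd14 was 274472 in KO replicate 1, where the others held 205263 to 224735. Sarm1 was 4.09 in WT replicate 4, where the others were at the floor of 1. Any value above the floor would have been flagged there, so the rate of about 1 in 20 does not hold for that group.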

How the results depend on the processing

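In limma, 0 of the 10 members passed the threshold under all 20 alternatives. Tlr1 kept its direction throughout, between -0.80 and -0.49 on the log2 scale (adjusted p 0.0855 to 0.688), as did Tlr8 (-0.44 to -0.22), Tlr4 (-0.43 to -0.06), Tlr7 (-0.37 to -0.13), Tlr2 (-0.14 to -0.0091) and Myd88 (0.11 to 0.21). For Tlr1 the direction was fixed in advance wherever libraries were only left out, because its groups did not overlap. The sign of Tlr13 turned to 0.0073 under quantile scaling, 0.055 with depth class as a term, 0.19 in the deeper libraries and 0.0080 with limma-voom, and ran from -0.10 to 0.13 with 1 library left out. Left out in turn, libraries moved Tlr3 from -0.12 to 0.30 (0.70 in the deeper libraries alone), Tlr6 from -0.14 to 0.16, Tirap from -0.052 to 0.15 and Ticam1 from -0.12 to 0.10. In the deeper libraries alone, Tlr9 (0.0075), Irf1 (0.0035), Cd14 (-0.0043) and Tirap (-0.092) turned sign. Calls over all genes fell from 46 to 0 in the deeper libraries alone and to between 5 and 38 with 1 library left out. Pathway calls were 2 with robust moderation, which added Ly86 (adjusted p = 0.0309), and 0 in the deeper libraries, and 4 members kept their rank per coding length; the cause was not tested. With replicate number as a block in limma, calls were 0 over all genes and 0 in the pathway. Wdfy1 was then 2.19 (adjusted p = 0.115, with 1.87 and 0.108 in the deeper libraries). Nucb2 was -1.58 (adjusted p = 0.0515, with -1.61 and 0.116 in the deeper libraries). The labels do not say whether the numbers pair the libraries. Deviations of same-numbered libraries correlated between -0.053 and 0.090, and 2 of 4 WT libraries correlated best with their own number. A check on so few libraries cannot settle whether they are paired. Low read numbers limit Tlr9 and Tlr3.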
